A study of Rattus norvegicus with 6 samples.

Results

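The nuclear genes of the oxidative phosphorylation complexes were examined in RASMCs, primary aortic smooth muscle cells of male Sprague-Dawley rats. They were taken by symbol from the deposited count table, as every row beginning with Nduf and a letter a, b, c, s or v followed by a digit, the rows Sdha, Sdhb, Sdhc and Sdhd, and every row beginning with Uqcr, with Cox4 to Cox8 or with Atp5. The rule found 84 of 22574 gene symbols: 37 of complex I, 4 of complex II, 8 of complex III, 18 of complex IV and 17 of complex V. The complex was assigned by the start of the symbol alone. Ndufa4 is therefore counted with complex I and Atp5s and Atp5sl with complex V throughout, whatever their place described below. The study sequenced 6 libraries, 3 of cells challenged with 0.03 μM citrullinated histone H3 (H3CIT) plus 300 ng/ml double-stranded DNA (dsDNA), which are components of extracellular traps, and 3 of control cells treated with bovine serum albumin. The length of the exposure is not given in the sources used here. For its cell experiments in general, the study describes replicates as separate wells of one rat's cells. Whether the sequenced replicates were such wells is not stated, so the p-values measure the spread between these libraries, which may not include that between animals.

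Oxidative phosphorylation takes place in the inner mitochondrial membrane. Complex I takes electrons from NADH and complex II from succinate, complex III passes them from ubiquinol to cytochrome c, complex IV hands them to oxygen, and complex V, the ATP synthase, uses the proton gradient that complexes I, III and IV build up. Most subunits are encoded in the nucleus, and a small set is encoded by mitochondrial DNA. Contractile smooth muscle draws much of its ATP from this chain, and phenotypic switching of these cells is known to be accompanied by a shift in energy metabolism.

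The libraries held between 17573905 and 18742395 counts, and the genes described here took 1.33% to 1.41% of them. Expression levels are given in CPM, the usual library-size-scaled counts, after TMM normalisation. Of the smooth muscle markers, all 6 were detected in every library, their summed level lying between 5448 and 6002 CPM after H3CIT+dsDNA and between 8168 and 8913 CPM in controls. Acta2, Tagln, Cnn1 and Smtn fell and Myocd rose in that list. Myh11 overlapped between the groups, with a log2 fold change of 0.061 (edgeR adjusted p = 0.46). The part of these markers in the values given next was not tested. Summed endothelial markers were at most 7.45 CPM and summed macrophage markers at most 76.4 CPM in any library, most of the latter from Cd14, and Kdr and Ptprc had at most 1 count. The other endothelial and macrophage markers were detected in every library, among them Cdh5 with 73 to 105 counts, Pecam1 with 9 to 18, Csf1r with 296 to 374, Adgre1 with 21 to 35 and Cd68 with 10 to 19, and none of either list was called. In the fibroblast list Thy1 held nearly the whole sum, and Pdgfra, Dcn and Lum had at most 18 counts.

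A sequence feature was looked for first, because the regulators NRF1, GABP (an ETS factor) and YY1 are known to act on promoters of these genes. Promoter windows of 300 bases, 250 before and 50 after the start, were taken from RefSeq (GRCr8), a later assembly than the Rnor6.0 of the counts. All 84 genes were matched, 67 by symbol and 17 by an older symbol, and 73 had a window. On both strands, the NRF1 letters GCGCATGC were found in 9 of 73 windows (12.3%), against 2.66% of all 27457 promoters and 5.25% of the 9336 promoters of genes tested. The ETS letters CCGGAAG were found in 26% of the 73 windows, against 9.22% of all promoters and 17.8% of those of genes tested. The YY1 letters ATGGCG were found in 31.5%, against 10.6% and 18%. A GC box, GGGCGG, was found in 43.8% of the windows, where 63.2% of the promoters of genes tested held it. CCAAT was found in 32.9% of the windows against 37.9%, and TATAAA in 9.59% against 6.58%. The median GC content was 56.0% in these windows and 61.0% in the promoters of genes tested, and its part in the shares was not tested. The promoters of genes tested were those matched by symbol, while the 73 windows include older-symbol matches and genes not tested. Cox8c, not tested, was among the 9 with the NRF1 letters. Of the tested subunit genes with a window, 8 held these letters and 60 did not. Such matches are a description of the letters and show no binding. To show what they look like, 60 bases upstream of the start are printed for 1 gene of each complex, 5′ to 3′ on the strand of the gene, with the matched letters in capitals. They lie at chr9:1637493-1637552 (plus strand) for Ndufa11, chr5:158547743-158547802 (plus) for Sdhb, chr8:118468160-118468219 (plus) for Uqcrc1, chr1:213833624-213833683 (minus) for Cox8a and chr11:44657507-44657566 (minus) for Atp5o. The genes were chosen after the matches had been seen. Cox8a shows 2 ETS matches and the other 4 show NRF1 matches, which overlap each other in Ndufa11 and in Atp5o because the letters are close to a palindrome.
Ndufa11: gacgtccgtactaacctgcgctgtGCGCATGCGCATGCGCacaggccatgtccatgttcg
Sdhb: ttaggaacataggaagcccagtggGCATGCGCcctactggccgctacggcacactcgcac
Uqcrc1: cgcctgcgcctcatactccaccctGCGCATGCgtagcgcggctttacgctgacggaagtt
Cox8a: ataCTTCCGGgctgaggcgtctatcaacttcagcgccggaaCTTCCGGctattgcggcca
Atp5o: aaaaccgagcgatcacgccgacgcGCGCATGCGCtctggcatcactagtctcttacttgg

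After H3CIT+dsDNA the subunit genes were measured close to their control levels. Of the 84 genes, 79 had enough counts to be tested, and none passed an adjusted p-value of 0.05 by the quasi-likelihood test of edgeR, where 1.94% of all genes tested were called higher and 0.262% lower. DESeq2 and limma-voom called none of them either. The lowest adjusted p was 0.189 (edgeR), for Atp5e. At an unadjusted p-value under 0.05, 13 of the 79 genes were lower and 0 higher, against 5.3% lower and 8.64% higher over all 12591 genes tested. That count of 13 depended on single libraries and on scaling: it was 2 without H3CIT+dsDNA replicate 1, 7 without H3CIT+dsDNA replicate 3, 4 without control replicate 1, 4 without control replicate 2 and 26 without control replicate 3, and it was 6 with library size alone and 21 with upper-quartile scaling. Most values were slightly below 0. In 66 of the 79 genes the log2 fold change was negative (83.5%), against 50.5% over all genes tested, and the median was -0.053 against -0.0013. The medians were -0.047 for 36 genes of complex I, -0.041 for 4 of complex II, -0.045 for 8 of complex III, -0.054 for 14 of complex IV and -0.062 for 17 of complex V. Among genes with at least 500 counts in every library, a limit set after the values were seen, 63 of 72 subunit genes were negative (87.5%) with a median of -0.054, and 58.4% of all 5637 such genes were negative with a median of -0.015. At an unadjusted p-value under 0.05 (edgeR), 12 of these 72 were lower and 0 higher, and of the 5637 genes 474 were lower and 507 higher. Subunit genes are transcribed together in the same cells and are not independent replicates, so these shares carry no test.

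**Figure D1:**
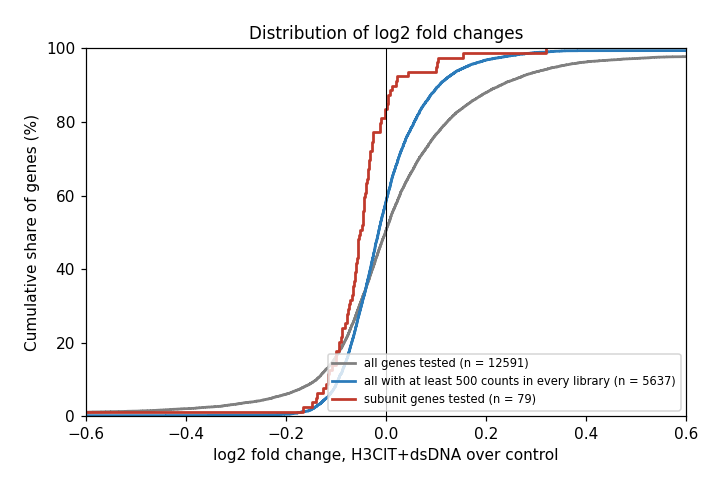
Cumulative share of genes (y axis, %) by log2 fold change of H3CIT+dsDNA over control (x axis, shown from -0.6 to 0.6) for all genes tested, for those with at least 500 counts in every library and for the 79 subunit genes. The subunit curve crosses 0 at 83.5% of its genes and the curve of all genes at 50.5%.

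The precision was high enough to bound the differences. For the 72 subunit genes with at least 500 counts in every library, the median standard error (SE) was 0.0435 on the log2 scale, and the 95% intervals of the log2 fold change all lay between -0.28 and 0.35, a change of -17.5% to 27.3%. The intervals included 0 for 60 genes and lay below 0 for 12, none of which was called after adjustment. For 70 of the 72 genes the interval lay wholly within 20% of the control level in either direction, the exceptions being Uqcr10 and Ndufa3. The remaining 7 genes tested had fewer counts and wider intervals.

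**Figure D2:**
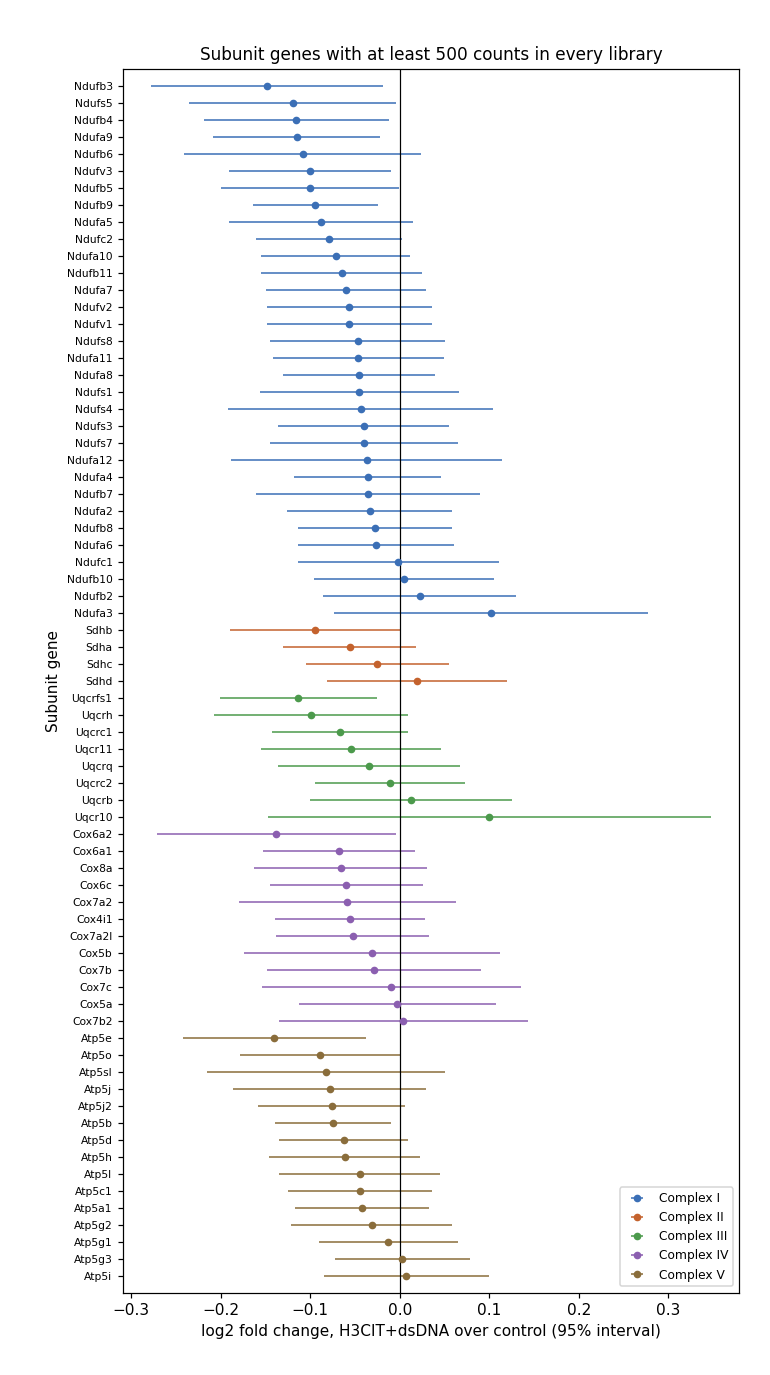
Log2 fold change of H3CIT+dsDNA over control (x axis) for 71 of the 72 subunit genes with at least 500 counts in every library (y axis), coloured by complex and sorted within each. Points are edgeR estimates and lines 95% intervals from 3 libraries per group; most points lie just left of 0, and all intervals lie between -0.28 and 0.35.

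The small downward displacement did not separate the libraries of both groups. For each library, the difference of each of the 79 genes from its control mean was taken in log2 CPM. The median difference was -0.083, -0.035 and -0.048 in H3CIT+dsDNA replicates 1, 2 and 3, and 0.030, 0.015 and -0.041 in control replicates 1, 2 and 3. Control replicate 3 thus lay between the H3CIT+dsDNA libraries, with 67 of 79 genes below the control mean, where H3CIT+dsDNA replicate 3 had 60. Over all genes tested the median difference was between -0.0010 and 0.0031 in every library, as TMM normalisation itself brings the bulk of genes close to 0. In 13 of the 79 genes the 3 H3CIT+dsDNA libraries were all below the 3 controls and in 0 all above, against 8.43% and 10.7% over all genes tested. Among genes with at least 500 counts in every library, 12 of 72 subunit genes were all below. Of all 5637 such genes, 715 were all below and 572 all above. The 13 were Ndufa10, Ndufb3, Ndufb9, Ndufc2 and Ndufv3 of complex I, Sdha and Sdhb of complex II, Uqcrc1 and Uqcrfs1 of complex III, Cox4i2 of complex IV, and Atp5b, Atp5d and Atp5j2 of complex V.

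**Figure D3:**
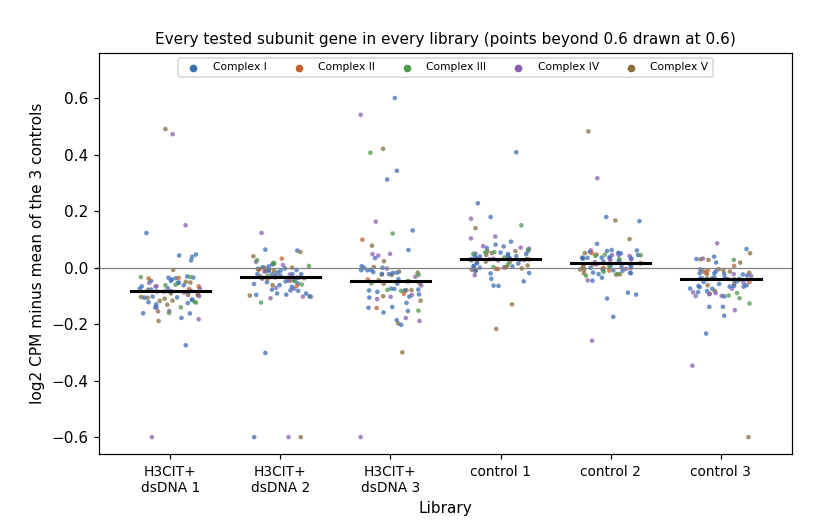
Log2 CPM of each of the 79 tested subunit genes minus its mean over the 3 controls (y axis) in each library (x axis), coloured by complex; black bars are medians and points beyond 0.6 are drawn at 0.6. The median bars lie at -0.083, -0.035 and -0.048 after H3CIT+dsDNA and at 0.030, 0.015 and -0.041 in controls, so control replicate 3 sits among the H3CIT+dsDNA libraries.

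Summed over the genes of a complex, complex I held 3931, 4039 and 4017 CPM after H3CIT+dsDNA and 4226, 4223 and 4050 CPM in controls. Complex V held 4621, 4850 and 4777 CPM against 5001, 4941 and 4896 CPM. In both, the 3 H3CIT+dsDNA libraries were below the 3 controls, narrowly so for complex I. The sums of complex II were 554.1 ± 10.2 CPM against 570.2 ± 5.97 CPM (SD, n = 3), those of complex III 1203 ± 30.2 against 1242 ± 53.2 CPM, and those of complex IV 2956 ± 48.1 against 3065 ± 111 CPM, and here the groups overlapped. The differences of the means were -2.82% for complex II, -3.15% for III, -3.56% for IV, -3.98% for V and -4.1% for complex I. Abundant genes weigh most in such sums, and no test was made on them.

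**Figure D4:**
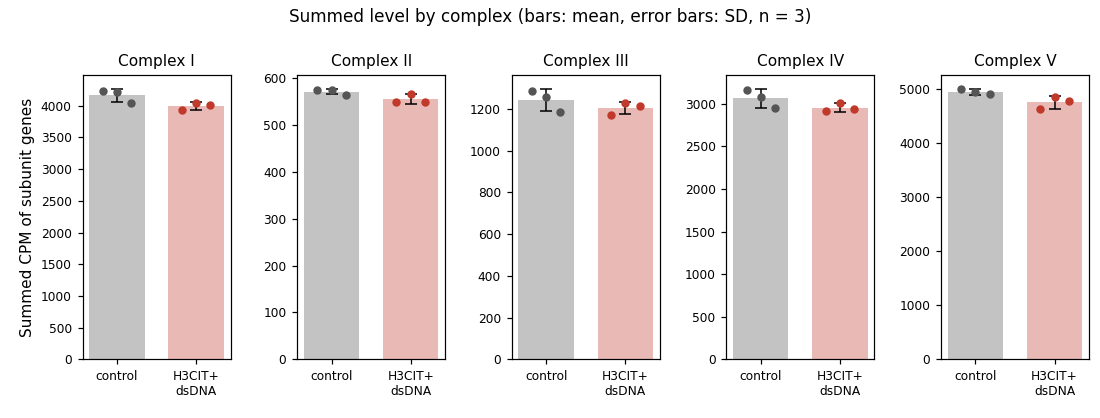
Summed CPM of the subunit genes of each complex (y axis, from 0) in controls and after H3CIT+dsDNA; points are libraries, bars means and error bars SD (n = 3). The means after H3CIT+dsDNA differ from controls by -2.82% (complex II) to -4.1% (complex I), and the points of complexes II, III and IV overlap between the groups.

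Complex I has a core of subunits that carry the flavin and iron-sulfur clusters and a shell of accessory subunits. Of its nuclear core genes, 6 are described, with log2 fold changes between -0.057 and -0.041 and no call. Ndufs1, the largest iron-sulfur subunit, had 105, 99.9 and 93.1 CPM against 101, 99.3 and 107 CPM, a log2 fold change of -0.046 with a 95% interval of -0.16 to 0.066. For Ndufv1, which holds the flavin where NADH is oxidised, the value was -0.056 (interval -0.15 to 0.035), and Ndufs3, Ndufs7, Ndufs8 and Ndufv2 were at -0.041, -0.041, -0.047 and -0.057.

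Among the accessory genes of complex I, Ndufb3, of the membrane arm, had the lowest value. It had 38.7, 43.8 and 44.2 CPM after H3CIT+dsDNA and 47.7, 47.2 and 45.5 CPM in controls, a log2 fold change of -0.15 (SE 0.060, edgeR adjusted p = 0.283). The groups did not overlap, but H3CIT+dsDNA replicate 1 lay further from its 2 replicates than these lay from the controls, and without it the log2 fold change was -0.090. Ndufb9, also of the membrane arm, had narrow groups that did not overlap, with 264.9, 262.3 and 263.5 CPM against 281, 286 and 277 CPM and a log2 fold change of -0.095 (SE 0.032, edgeR adjusted p = 0.197). Ndufa9, Ndufb4, Ndufb5, Ndufs5 and Ndufv3 lay between -0.12 and -0.10, with unadjusted p-values under 0.05 and adjusted p-values of 0.244 to 0.356. The highest of the well-counted accessory genes was Ndufa3, at 46.9, 48.6 and 59.9 CPM against 51.0, 47.5 and 46.3 CPM. H3CIT+dsDNA replicate 3 was the highest library, the groups overlapped, and the log2 fold change was 0.10 (interval -0.074 to 0.28).

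Ndufa1 and Ndufs6, subunits that every mammalian complex I contains, were counted at 30, 28 and 35 against 36, 25 and 24 reads and at 24, 15 and 39 against 25, 29 and 23 reads. Ndufa1 had the highest log2 fold change of complex I, 0.15, with an interval of -0.41 to 0.72, and Ndufs6 the widest spread of the 79 subunit genes tested, 1.34 on the log2 scale between H3CIT+dsDNA libraries. At such counts a difference of the size seen in the other genes was not detectable. The counting can split or drop reads that match a near-identical copy elsewhere, and whether this touched these genes was not tested. Ndufa4, which carries a complex I name but is found with complex IV, had a log2 fold change of -0.036 (SE 0.038). Its paralog Ndufa4l2, known as a hypoxia-induced gene, reached no more than 8 counts and was not tested.

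Complex II, succinate dehydrogenase, is also an enzyme of the citric acid cycle and is encoded wholly in the nucleus. Sdha, the flavoprotein, had 189, 189 and 182 CPM after H3CIT+dsDNA and 193, 196 and 193 CPM in controls, and Sdhb, the iron-sulfur subunit, had 82.8, 83.4 and 79.0 CPM against 87.2, 90.4 and 84.2 CPM. In both genes the groups did not overlap, with log2 fold changes of -0.056 (SE 0.034, edgeR adjusted p = 0.505) and -0.095 (SE 0.044, edgeR adjusted p = 0.363). The membrane anchors Sdhc and Sdhd, at -0.025 and 0.019, overlapped between the groups. Sdhd was at 59.5, 60.8 and 65.4 CPM against 60.9, 61.1 and 61.4 CPM, and its sign turned to -0.025 without H3CIT+dsDNA replicate 3.

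In complex III the Rieske iron-sulfur protein gene Uqcrfs1 had the lowest value. It was at 196, 209 and 195 CPM after H3CIT+dsDNA and at 224, 214 and 210 CPM in controls, a narrow gap between the groups, with a log2 fold change of -0.11 (SE 0.040, edgeR adjusted p = 0.218). The core protein genes Uqcrc1 and Uqcrc2 were at -0.067 (SE 0.035) and -0.011 (SE 0.039). Uqcr10, a small subunit, stood at the other end with 73.1, 81.99 and 108 CPM against 90.6, 80.4 and 74.8 CPM. Its log2 fold change was 0.10, and -0.081 without H3CIT+dsDNA replicate 3. The same library was the highest of its group for Ndufa3, Uqcr10 and Cox7c, while for Cox5b it was the lowest.

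Complex IV, cytochrome c oxidase, has subunits with tissue-specific isoforms. Cox4i1, the general form of subunit 4, was at 593, 637 and 585 CPM against 642, 633 and 611 CPM and had a log2 fold change of -0.055 (SE 0.039, edgeR adjusted p = 0.569). Cox4i2, known as a hypoxia-responsive form of lung and some vascular cells, had 8, 9 and 8 counts after H3CIT+dsDNA and 15, 19 and 12 counts in controls. These groups did not overlap and the fitted value was -0.84, but the interval ran from -1.61 to -0.075 and the adjusted p was 0.302 (edgeR). Cox6a2, the heart and skeletal muscle form of subunit 6a, was at 71.5, 75.6 and 70.2 CPM against 85.8, 81.8 and 71.6 CPM, a log2 fold change of -0.14 (SE 0.062, edgeR adjusted p = 0.340). Its groups overlapped through control replicate 3, and without that library the value was -0.21 with an adjusted p of 0.0410, while the 15 alternatives together spanned 0.0410 to 0.675. Cox5b ranged from 208 to 263 CPM after H3CIT+dsDNA and from 232 to 242 CPM in controls, a spread wider than its log2 fold change of -0.031. Cox7a2l2, at 60, 39 and 63 against 48, 37 and 47 counts, had the highest value of the complex, 0.32, with an interval that included 0 (adjusted p = 0.586 from edgeR). Cox6b2, Cox7a1 and Cox8c reached no more than 6 counts, and Cox8b had none in any, where a count of 0 allows up to 3 counts. These 4 genes, which are mainly known from testis, heart or skeletal muscle, were not tested.

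In complex V Atp5a1 and Atp5b encode the alpha and beta subunits of the catalytic F1 head. Atp5b was at 1416, 1467 and 1433 CPM after H3CIT+dsDNA and at 1522, 1489 and 1533 CPM in controls. Its groups did not overlap, with a log2 fold change of -0.074 (SE 0.030, edgeR adjusted p = 0.283), a change of -5.02%. Atp5a1 overlapped between the groups at -0.042 (SE 0.034). Atp5e, the epsilon subunit of the central stalk, had 234, 260 and 233 CPM against 277, 269 and 256 CPM. H3CIT+dsDNA replicate 2 lay within the controls, and the log2 fold change was -0.14 (SE 0.047, edgeR adjusted p = 0.189). Without that library Atp5e was at -0.20 and passed the threshold (adjusted p = 0.0418), while the alternatives together spanned 0.0418 to 0.506. Atp5o, a subunit of the peripheral stalk whose promoter is shown above, was at -0.089 (SE 0.042), and Atp5i, of the membrane part, at 0.0071 (SE 0.042). Atp5f1, a peripheral stalk subunit, was counted at 57, 23 and 33 against 44, 58 and 27 reads. Its value of -0.17 had an interval that included 0, and it turned to 0.077 without H3CIT+dsDNA replicate 2 and to 0.096 without control replicate 2. Whether reads of Atp5f1 were split or dropped because of a near-identical copy was not tested. Atp5sl, now named Dmac2 and known as an assembly factor of complex I, and Atp5s, now Dmac2l, were at -0.082 and 0.10, the latter turning to -0.081 without H3CIT+dsDNA replicate 3.

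The ratio of related genes within a library does not depend on library scaling. The log2 ratio of Cox6a1 to Cox6a2 counts was 3.11 ± 0.020 after H3CIT+dsDNA and 3.04 ± 0.11 in controls (SD, n = 3), which, with no gene lengths used, gives no order of their levels. The 3 genes of the ring-forming c subunit, Atp5g1, Atp5g2 and Atp5g3, are known to encode the same mature protein, and their ratios differed between the groups by 0.020 for Atp5g1 over Atp5g2, -0.016 for Atp5g1 over Atp5g3 and -0.036 for Atp5g2 over Atp5g3. For Cox7a2 over Cox7a2l, a gene known for assembling supercomplexes, the difference was -0.0082. In exact permutation tests over the 6 libraries, two-sided, the 5 pairs had p-values of 0.4 to 0.9, all 0.9 after Benjamini-Hochberg adjustment over the 5, where 3 libraries against 3 cannot give less than 0.1. The other 5 pairs planned had a gene with fewer than 10 counts in a library or not in the table.

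**Figure D5:**
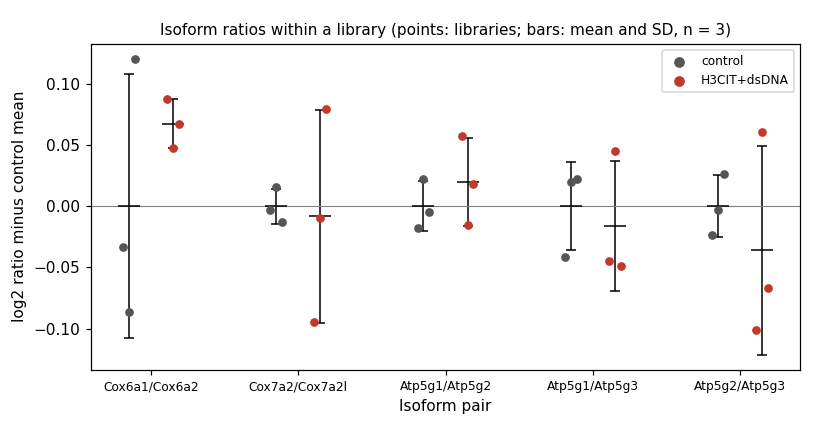
Log2 ratio of counts of 2 related genes within a library, minus the mean of the 3 controls (y axis), for the 5 pairs tested (x axis); points are libraries, bars mean and SD (n = 3). The groups overlap in every pair, and the mean differences run from -0.036 to 0.067.

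The median log2 fold changes with and without promoter letters lay close together for NRF1, ETS, YY1 and the GC box, and apart for TATAAA. The 8 tested genes with an NRF1 match had a median log2 fold change of -0.046 and the 60 with a window and no match -0.045. For the ETS letters the medians were -0.042 for 19 genes and -0.053 for 49, and for the YY1 letters -0.045 for 23 and -0.046 for 45. For the GC box they were -0.041 for 29 genes and -0.046 for 39, and for CCAAT -0.057 for 21 and -0.044 for 47. The 6 tested genes with TATAAA had a median of 0.0049, 3 of them negative, where the 62 without had -0.047, 53 of them negative. The 3 positive ones were Cox7a2l2 (0.32) and Ndufs6 (0.043), with at most 63 counts in any library, and Uqcr10 (0.10). Uqcr10 turned to -0.081 without H3CIT+dsDNA replicate 3. The better counted Atp5l, Ndufa2 and Ndufa7 were at -0.045, -0.0335 and -0.06. No test was made on these splits. The 8 genes with an NRF1 match ran from Sdhb (-0.095), Atp5o (-0.089), Uqcrc1 (-0.067) and Ndufa11 (-0.046) to Atp5l (-0.045), Atp5g2 (-0.032), Ndufa6 (-0.027) and Atp5i (0.0071). Of the regulators, 13 of 16 were tested, with a median log2 fold change of 0.060, 10 values positive and 3 genes with all H3CIT+dsDNA libraries above the controls in CPM. Gabpa and Sp1 were higher at an unadjusted p-value under 0.05, and none was called. Over all genes tested, 10.7% had all H3CIT+dsDNA libraries above the controls, 8.64% were higher at that limit and 50.5% were negative. Nrf1 was at 0.018 (SE 0.072), Yy1 at 0.073 (SE 0.066) and Esrra, a nuclear receptor known to act on these genes, at -0.051 (SE 0.048). Gabpa, the DNA-binding subunit of GABP, had 350, 363 and 365 counts against 308, 309 and 340, with a log2 fold change of 0.20 (SE 0.072, edgeR adjusted p = 0.222). Sp1, a factor that binds GC boxes, had 1441, 1409 and 1499 counts against 1215, 1417 and 1359, groups that overlapped as raw counts but not in CPM, with a log2 fold change of 0.15 (SE 0.048, edgeR adjusted p = 0.157). Ppargc1a, the coactivator PGC-1alpha, reached no more than 2 counts and was not tested.

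Other genes of the pathway gave no call either in the main edgeR fit. Cyc1, the cytochrome c1 subunit of complex III, was at -0.017 (SE 0.038), Ndufab1, the acyl carrier subunit of complex I, at -0.0515 (SE 0.045) and Cycs, cytochrome c itself, at -0.10 (SE 0.067). This list of subunits and carriers outside the symbol rule also held Usmg5, at -0.050 (SE 0.054), and Atpif1, at -0.088 (SE 0.038, edgeR adjusted p = 0.323). Atpif1 was lower at an unadjusted p-value under 0.05, and its H3CIT+dsDNA libraries all lay below the controls. The 5 genes tested in this list were all negative. Over 47 assembly factors of the complexes the median was -0.048, with 0 called and 2 lower at an unadjusted p-value under 0.05. Over 14 genes of electron carriers and ubiquinone synthesis it was -0.054 with 1 lower, and over 25 genes of the citric acid cycle and pyruvate dehydrogenase -0.036 with 1 lower and 1 higher. The 22 genes of mitochondrial DNA maintenance and expression had a median of -0.0061 with none past that limit in either direction. Over all genes tested, 5.3% were lower and 8.64% higher at that limit, and 50.5% were negative. Of the 5637 genes with at least 500 counts in every library, 474 were lower at that limit and 58.4% were negative. Mitochondrial ribosomal proteins, which build the subunits encoded by mitochondrial DNA, had the lowest median of these lists, -0.076 over 73 genes, 60 of them negative, 11 lower and 1 higher at an unadjusted p-value under 0.05, and 0 called. The one higher gene, Mrpl53, had 366 counts in H3CIT+dsDNA replicate 1 and at most 29 in any other library. Of 22 protein import genes, 5 were lower and 2 higher at that limit, and Timm8b, an import chaperone of the intermembrane space, came closest to a call at -0.19 (SE 0.047, edgeR adjusted p = 0.0558). Subunits encoded by mitochondrial DNA were searched under 26 symbols, found under none and not analysed here.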

How the data were processed

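Samples were grouped by their titles, which match the 6 columns of the table. Per its methods, the study made stranded mRNA libraries, mapped them to Rnor6.0 with TopHat v2.1.1 and counted reads with HTSeq, the authors then depositing raw counts per gene symbol; the submitters' processing notes also name Cufflinks 2.2.1 and Cuffdiff. Strand and multi-mapping settings of the counting are not given in the sources used here. Overlapping or near-identical genes can therefore lose reads or share them.

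Genes were filtered with filterByExpr (12591 kept, 5367 without any count), normalised by TMM and compared in edgeR 4.0.16 (quasi-likelihood F-test, R 4.3.3), Benjamini-Hochberg adjusted over all genes tested, and called below 0.05 after adjustment. Errors (SE) were the unshrunken coefficient over the square root of F, and 95% intervals from that error and the test's degrees of freedom. Intervals cover the spread between these libraries. Alternatives were 3 other scalings, DESeq2 1.42.0, limma-voom (limma 3.58.1), 2 other filters, robust dispersion, blocking on replicate number, and omitting each library in turn. Same-numbered libraries had correlations of -0.0458, 0.00452 and 0.0355.

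Genes named were those called, the extremes of each complex, the 5 of widest spread, isoform pairs, core subunits, called pathway genes and those not tested; 8 more with an unadjusted p-value under 0.05 were added after their values were seen. Ndufa2, Ndufa3, Ndufa7, Ndufa11, Cox5b, Cox7c, Atp5a1, Atp5i, Atp5o, Atp5sl, Atp5l, Ndufa6, Usmg5, Atpif1, Timm8b, Mrpl53 and the regulators were likewise named after their values were seen. Members, lists and tests were chosen with earlier results of these data known. No protein sequences were used here. The values of 1 core gene of complex I are not reported here, though it stays in all counts, sums and medians. Ratios of isoforms were taken after adding 0.5 to each count, and promoters were read from RefSeq (GRCr8).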

Additional observations from a re-analysis of the deposited data

How the results depend on the processing

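The number of subunit genes called higher was 0 in all 15 alternatives, and the number called lower was 0 in the 9 alternatives with all libraries, the replicate block among them. With single replicates omitted in turn, the range was 0 to 1: Atp5e (log2 fold change -0.20, adjusted p = 0.0418 from edgeR) without H3CIT+dsDNA replicate 2 and Cox6a2 (-0.21, adjusted p = 0.0410) without control replicate 3. The cause was not tested. The median log2 fold change, -0.053, lay between -0.076 and -0.039 with one replicate left out, and was -0.070 with upper-quartile scaling, -0.033 with library size alone and -0.052 under the replicate block; relative to the median of all genes tested it was -0.051 in each of these 3. Libraries with the same number were not paired by their deviations, and the block called 212 genes in all against 277 without it. Groups that did not overlap numbered 13 below and 0 above under every scaling. Of 599 values of 40 subunit genes followed, 597 kept their side of the threshold and 19 had the other sign, none of them called. The isoform differences kept their direction with pseudocounts of 0 and 2. These could hardly alter the ratios, since the genes of the tested pairs had at least 1275 counts in every library. Cyc1, Cycs and Ndufab1 had no call in 45 values. The other pathway genes, among them Timm8b (edgeR adjusted p = 0.0558 in the main fit), were not followed through the alternatives. Depth limits Ndufa1, Ndufs6, Atp5f1, Cox4i2 and Cox7a2l2, with at most 63 counts in any library, and the 5 genes not tested.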
